A study of Homo sapiens with 4 samples.

Results

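The genes described here are those of HLA class I and of the machinery that loads peptides onto it, measured by RNA sequencing in T24, a cell line of human bladder cancer. They are the 9 rows of the count table whose gene symbol was HLA-B, HLA-C, HLA-E, HLA-F, B2M, TAP1, TAP2, TAPBP or NLRC5, out of 62893 rows in all, and each symbol matched 1 Ensembl gene. The cells had been treated with siRNA against NSUN2 (siNSUN2), which encodes an RNA 5-methylcytosine methyltransferase, or with control siRNA (siControl), and each group has 2 libraries. Both groups consist of the same cell line. The labels do not give the replicates as separate cultures, and the p-values cover no more than the variation from library to library, which can be technical.

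Class I molecules show short peptides from inside the cell to CD8 T cells and natural killer cells. A heavy chain (HLA-B, HLA-C, HLA-E or HLA-F) folds with the light chain β2-microglobulin (B2M) in the endoplasmic reticulum (ER). The transporter made of TAP1 and TAP2 brings peptides in from the cytosol, and tapasin (TAPBP) holds the empty molecule beside the transporter until a peptide fits. NLRC5 is the transactivator that acts on the promoters of class I genes together with RFX, NF-Y and CREB/ATF proteins, and interferons induce most of these genes. Loss of this pathway is a common route by which carcinomas evade T cells.

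The shallowest library had 33633249 counts and the deepest 215936965, and levels are given as CPM, the counts of a gene scaled to the size of its library. NSUN2 itself had 29.6 and 30.1 CPM in siNSUN2 cells, against 281 and 284 CPM in siControl cells. Of the epithelial markers listed, the keratin genes KRT8, KRT18 and KRT7 were well measured, whereas EPCAM, CDH1, KRT19 and KRT5 had at most 20 counts in any library. Markers of other cell types were also read, since leukocytes and endothelial cells carry much class I. The 9 leukocyte markers summed to 1.74 and 4.21 CPM in the siNSUN2 libraries, against 1.44 and 1.08 CPM in the siControl libraries. PTPRC, the pan-leukocyte marker CD45, had 4 and 20 counts in the siNSUN2 libraries, against 0 and 4 counts in the siControl libraries. The 4 endothelial markers summed to 2.50 and 11 CPM in the siNSUN2 libraries, against 0.635 and 0.400 CPM in the siControl libraries, and PECAM1 was listed at 0 in all. Most of the siNSUN2 sums was VWF, with 1.8 and 8.73 CPM, against 0.165 and 0.113 CPM in the siControl libraries. CDH5 had 0.577 and 1.87 CPM, against 0.471 and 0.282 CPM. Neither VWF nor CDH5 was called, and KDR did not pass the filter on low counts. Of the fibroblast markers, COL1A1 was called higher, with 2.92 and 3.3 CPM in the siNSUN2 libraries, against 0.847 and 1.64 CPM in the siControl libraries. COL1A2 and COL3A1 were instead highest in siControl replicate 2. COL1A2 had 4 and 5 counts in the siNSUN2 libraries, against 0 and 74 in the siControl libraries. COL3A1 had 0 and 0 counts, against 1 and 115. PDGFRA, PDGFRB and DCN had at most 8 counts in any library. HBB, an erythroid marker, had 0 and 91 counts in the siNSUN2 libraries, against 0 and 40 counts in the siControl libraries. The other erythroid markers, HBA1 and HBA2, were highest in siControl replicate 2. HBA1 had 0 and 0 counts in the siNSUN2 libraries, against 0 and 66 in the siControl libraries. HBA2 had 0 and 8 counts, against 0 and 56. The leukocyte and endothelial sums were higher in siNSUN2 replicate 1 than in either siControl library. These sums, and HBB, were highest in siNSUN2 replicate 2. The part of all these markers in the results was not tested. Without that library 8 of the 9 genes were called, all but TAPBP, and each kept its direction. HLA-B was then at 0.79 on the log2 scale, HLA-C at 0.84, HLA-E at 0.63, HLA-F at 0.63, B2M at 0.29, TAP1 at 0.87, TAP2 at −1.03, TAPBP at −0.55 and NLRC5 at 1.19, and 57 of the genes in the pathway lists given last were called, against 63 with it.

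After NSUN2 siRNA, the class I heavy chain genes, B2M, TAP1 and NLRC5 were higher, and TAP2 and TAPBP were lower. All 9 genes passed the filter on low counts, and all 9 passed the test (the quasi-likelihood test of edgeR with Benjamini-Hochberg adjustment over all 16889 genes tested, adjusted p under 0.05). The test called 52.6% of all genes tested, 27.1% as higher and 25.5% as lower in siNSUN2. For all 9 genes the libraries of the groups did not overlap in CPM, which was also true of 38.6% of all genes upward and 36% downward. The median log2 fold change of the 9 was 0.64, against 0.026 for all genes tested. Since most genes were called, the description that follows rests on the directions and sizes of the single genes.

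**Figure D1:**
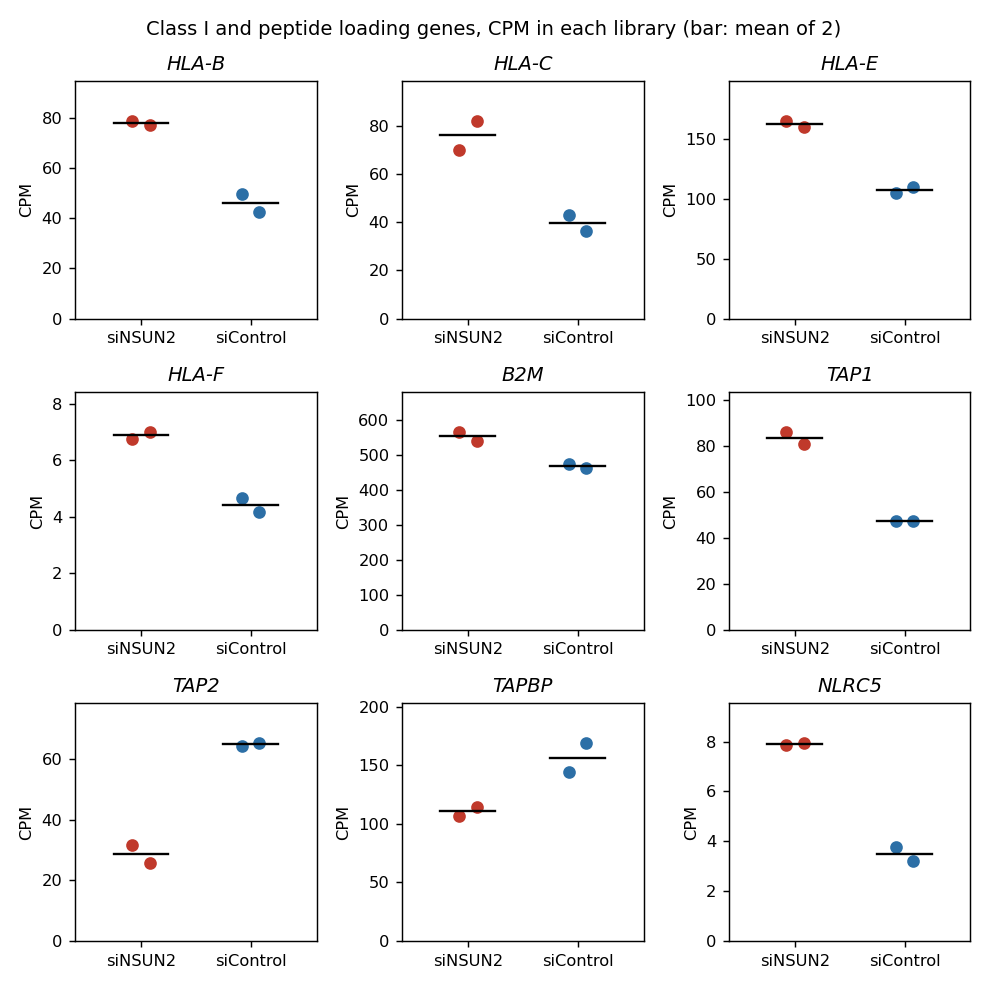
CPM of each of the 9 genes (vertical axes, from 0) in the 2 siNSUN2 libraries (red) and the 2 siControl libraries (blue), with a bar at each group's mean. Both siNSUN2 libraries lie above both siControl libraries for 7 genes and below them for TAP2 and TAPBP.

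Among the heavy chains, HLA-B (ENSG00000234745), which with HLA-C is 1 of the highly polymorphic genes that present peptides to CD8 T cells, had 78.8 and 77.2 CPM in siNSUN2 cells, against 49.5 and 42.5 CPM in siControl cells. Its log2 fold change was 0.77 (SE 0.076, adjusted p = 3.16e-04 with edgeR). HLA-C (ENSG00000204525), also the main ligand of the KIR receptors of natural killer cells, had 69.8 and 82.1 CPM in siNSUN2 cells, against 42.8 and 36.4 CPM in siControl cells. The siNSUN2 libraries were the higher ones for both genes, but those of HLA-C lay further apart. The log2 fold change of HLA-C was 0.94 (SE 0.14, adjusted p = 0.0123 with edgeR), the largest of the heavy chains and the least certain. It was 0.81 and no longer called without siControl replicate 2 (adjusted p = 0.114 with edgeR), and 0.43 and not called with trends on GC content and length removed (adjusted p = 0.149).

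HLA-E (ENSG00000204592), which presents leader peptides of other class I molecules to the CD94/NKG2A receptor of natural killer cells, had 165 and 160 CPM in siNSUN2 cells, against 105 and 110 CPM in siControl cells. It rose by 0.60 on the log2 scale (SE 0.043, adjusted p = 3.49e-06 with edgeR), with little spread in either group. HLA-F (ENSG00000204642), a less polymorphic class I gene known as a ligand of the KIR3DS1 receptor, had 6.77 and 7.01 CPM in siNSUN2 cells, against 4.66 and 4.17 CPM in siControl cells. The difference was 0.64 on the log2 scale (SE 0.12, adjusted p = 0.00178 with edgeR). It was the lowest of the heavy chains in all 4 libraries. Its antisense neighbour HLA-F-AS1, which shares 12.3% of the exonic bases of HLA-F in GENCODE release 29, moved the other way, with 0.730 and 0.789 CPM in siNSUN2 cells, against 1.81 and 1.96 CPM in siControl cells. The strand setting of the counting is not given in the sources used here, so reads of this pair may be assigned to either gene. The same holds for HLA-B, with 17.8% of its exonic bases opposite the pseudogene AL671883.2, and for TAP1, with 9.49% opposite PSMB8-AS1.

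Heavy chain genes are alike in sequence and differ between people, and the reads were aligned to 1 reference genome. Reads of alleles of T24 cells that differ from the reference, or that match several of these genes, may be lost or assigned to another member, and how many was not tested. The 4 heavy chain genes were therefore also summed into 1 row. Their sum was 321 and 326 CPM in siNSUN2 cells, against 202 and 193 CPM in siControl cells, and both knockdown libraries were well above both controls. In the fit with this row, the sum rose by 0.71 on the log2 scale (SE 0.041, adjusted p = 8.79e-07 with edgeR), which is 1.64-fold. Without siNSUN2 replicate 2 it was also 0.71. Within the sum, HLA-E held 51.5% and 49.0% of the heavy chain counts in siNSUN2 cells, against 52.0% and 56.9% in siControl cells. HLA-B held 24.6% and 23.7%, against 24.5% and 22.0%, and HLA-C 21.8% and 25.2%, against 21.2% and 18.9%. The share of HLA-C was thus higher and that of HLA-E lower in both siNSUN2 libraries than in both controls, with no test of these shares, and the shares of HLA-B overlapped.

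As counted, the light chain rose less than the heavy chains, an order that turned with the GC and length trends removed (B2M 0.49, SE 0.03, and the summed heavy chains 0.39, SE 0.042). B2M (ENSG00000166710) had 565 and 540 CPM in siNSUN2 cells, against 473 and 461 CPM in siControl cells. The log2 fold change was 0.24 (SE 0.041, adjusted p = 7.86e-04 with edgeR), the smallest of the 9 genes. Within a library, B2M had 1.76 and 1.66 counts for each heavy chain count in siNSUN2 cells, against 2.34 and 2.39 in siControl cells, so that the ratio was lower in both knockdown libraries. With 2 libraries a group, no permutation test of this ratio can reach a low p.

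The promoters of class I genes and of B2M are known for a shared module, in which RFX binds the X1 box, CREB/ATF the X2 box and NF-Y the Y box, and on which NLRC5 acts. Promoter windows of 250 bases before to 50 bases after the start were matched in RefSeq (GRCh38.p14) for 7 of the 9 genes, all but HLA-E and NLRC5. They were searched on both strands for TGACG (the core of the X2 box), ATTGG (the Y box), GAAA followed after 2 bases of any kind by GAAA (part of the interferon-stimulated response element) and the NF-kB consensus. TGACG followed by ATTGG after 15 to 25 bases, a spacing set after the members had been seen, was found in HLA-B, HLA-C and B2M, with spacers of 20, 20 and 21 bases, and in 0.447% of the 35116 windows of all genes. Singly, TGACG was in 24.6% of all windows, ATTGG in 34.6%, the interferon letters in 3.57% and the NF-kB consensus in 5.91%. The pair of TGACG and ATTGG was not found in the windows of HLA-F and TAP1, which also rose, or of TAP2 and TAPBP, which fell. The stretches of the HLA-B, HLA-C and B2M promoters that hold the matches are shown. They are written 5′ to 3′ on the strand of the gene, with the matches on either strand in capitals, at chr6:31357221-31357366 (minus strand) for HLA-B, chr6:31272134-31272294 (minus strand) for HLA-C and chr15:44711363-44711482 (plus strand) for B2M.
HLA-B: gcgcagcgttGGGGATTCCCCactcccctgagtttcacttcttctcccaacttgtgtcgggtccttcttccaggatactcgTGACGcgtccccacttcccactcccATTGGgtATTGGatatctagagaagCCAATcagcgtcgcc
HLA-C: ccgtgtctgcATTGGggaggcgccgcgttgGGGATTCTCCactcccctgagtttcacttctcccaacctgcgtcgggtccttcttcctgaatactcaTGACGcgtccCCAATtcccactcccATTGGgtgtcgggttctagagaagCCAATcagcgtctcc
B2M: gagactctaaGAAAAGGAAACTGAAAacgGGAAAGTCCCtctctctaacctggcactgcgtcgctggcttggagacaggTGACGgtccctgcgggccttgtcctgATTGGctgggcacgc
In each of the 3 stretches the NF-kB match lies upstream of the pair of X2 and Y letters. A match is a description of the letters and not a site.

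The peptide loading genes were divided. TAP1 (ENSG00000168394) had 86.1 and 80.6 CPM in siNSUN2 cells, against 47.1 and 47.4 CPM in siControl cells, and rose by 0.82 on the log2 scale (SE 0.046, adjusted p = 8.25e-07 with edgeR). Its partner TAP2 (ENSG00000204267) had 31.5 and 25.6 CPM in siNSUN2 cells, against 64.3 and 65.3 CPM in siControl cells. TAP2 fell by 1.17 on the log2 scale (SE 0.11, adjusted p = 0.00125 with edgeR) to 0.444 of its level, which put it at percentile 3.82 of the fold changes of all genes tested. The transporter works as a pair of 1 TAP1 and 1 TAP2. TAP1 had 2.73 and 3.14 counts for each TAP2 count in siNSUN2 cells, against 0.733 and 0.725 in siControl cells. These ratios are not corrected for length (4805 exonic bases in TAP1 and 6390 in TAP2). They can be compared between the groups but not with the ratio of the proteins in the pair. Another gene on the same strand, AL669918.1, shares 32.3% of the exonic bases of TAP2 in GENCODE release 29. It was listed at 0 in all 4 libraries, so reads in the shared part may not be in the counts of TAP2.

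Tapasin went the way of TAP2. TAPBP (ENSG00000231925) had 107 and 114 CPM in siNSUN2 cells, against 144 and 169 CPM in siControl cells. Its log2 fold change was −0.51 (SE 0.09, adjusted p = 0.00923 with edgeR). Both knockdown libraries were below both controls, but the call was lost without siNSUN2 replicate 1 (−0.46, adjusted p = 0.142 with edgeR) and without siNSUN2 replicate 2 (−0.55, adjusted p = 0.126 with edgeR). TAPBP had 1.24 and 1.41 counts for each TAP1 count in siNSUN2 cells, against 3.06 and 3.57 in siControl cells.

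**Figure D2:**
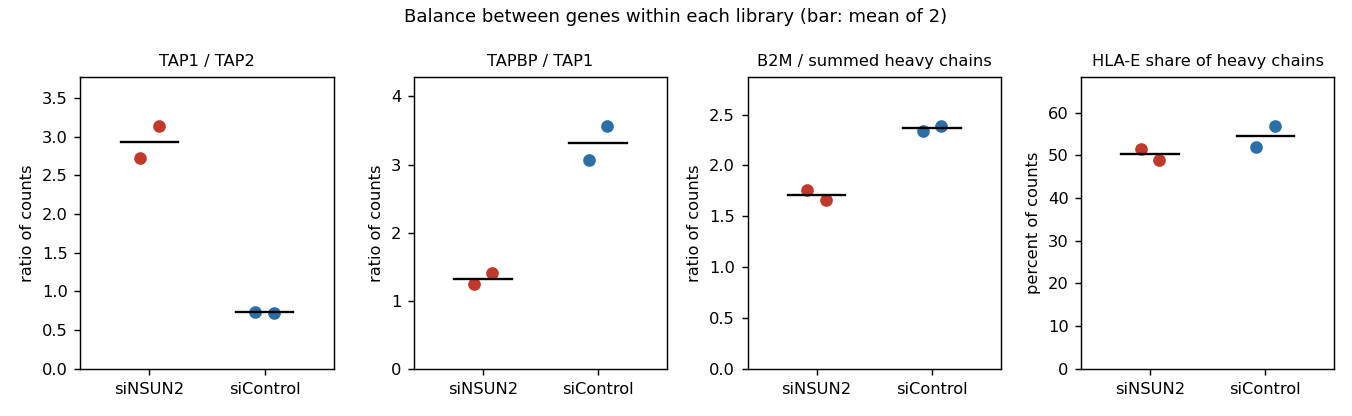
Ratios of raw counts of TAP1 to TAP2, of TAPBP to TAP1 and of B2M to the summed heavy chains, and the percent of heavy chain counts held by HLA-E (vertical axes, from 0), in each siNSUN2 library (red) and each siControl library (blue), with a bar at each mean. TAP1 per TAP2 averages 2.94 in siNSUN2 and 0.729 in siControl cells, B2M per heavy chain averages 1.71 and 2.37, and the HLA-E share stays near 50.3 and 54.5%.

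The 6-base word ACCCTA was found in the 3′ UTR of TAP2 and of TAPBP, and in no other of the 9 genes. Across the transcriptome, genes with this word in the longest annotated 3′ UTR (GENCODE release 29) tended to be lower after NSUN2 siRNA, a pattern known from an earlier look at these counts. Among genes tested with a searchable 3′ UTR, 2895 had the word and 9614 did not, a share close to the 2 of 9 here. The 9614 without the word had a median log2 fold change of 0.09, and 26.6% of them fell. The 2203 with 1 copy had a median of −0.12 with 42.6% lower. The 496 with 2 copies had a median of −0.24 with 48.6% lower, and the 196 with 3 or more had −0.37 with 57.7% lower. With the GC and length trends removed, these medians were 0.05 without the word, −0.08 with 1 copy, −0.17 with 2 and −0.26 with 3 or more. The length in that fit is that of the whole transcript. A longer 3′ UTR has more room for the word, and genes of equal 3′ UTR length were not compared. The 3′ UTR of TAP2, of 3491 bases, has 3 copies, and that of TAPBP, of 2066 bases, has 1. The sites are shown with the word in capitals, 5′ to 3′, named by the position of the word from the first base of the 3′ UTR.
TAP2, position 722: tcattatccccaACCCTAtgaggttggtta
TAP2, position 840: aacacaggcctgACCCTAgagtccacaccc
TAP2, position 894: ttgggtccataaACCCTAatccataatccc
TAPBP, position 75: ccctaaaataatACCCTAtcatctgctcct
The part of the word in these falls was not tested.

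The promoters of the 2 genes that fell hold the same interferon-type letters as those of TAP1 and B2M. The GAAA pair was found 2 times each in TAP1 (in 1 of its 2 windows), B2M and TAPBP and 1 time each in TAP2 and HLA-F, and the NF-kB consensus was found in HLA-B, HLA-C, B2M, TAP1 and TAPBP. The stretches of TAP2 (chr6:32838760-32838807, minus strand) and TAPBP (chr6:33314073-33314144, minus strand) are shown for comparison with the genes that rose, in the same way as above.
TAP2: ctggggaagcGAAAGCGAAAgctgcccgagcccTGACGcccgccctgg
TAPBP: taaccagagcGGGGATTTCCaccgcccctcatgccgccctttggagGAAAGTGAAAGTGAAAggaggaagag

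NLRC5 (ENSG00000140853) moved the most of the genes that rose. It had 7.85 and 7.95 CPM in siNSUN2 cells, against 3.79 and 3.19 CPM in siControl cells, which rest on 721, 272, 161 and 678 counts in siNSUN2 replicates 1 and 2 and siControl replicates 1 and 2. Its log2 fold change was 1.19 (SE 0.13, adjusted p = 5.65e-05 with edgeR), or 2.28-fold, at percentile 94.8 of all genes tested. CIITA, the related transactivator of class II genes, had 4 and 4 counts in the siNSUN2 libraries, against 1 and 3 counts in the siControl libraries, and did not pass the filter.

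Levels can be compared between genes only per length, here as TPM (CPM corrected for length), computed from the counts and the exonic length of each gene in GENCODE release 29. B2M was the highest, at 353 ± 0.584 TPM in siNSUN2 and 298 ± 10.2 TPM in siControl cells (mean ± SD, n = 2 each, as for all TPM given here). HLA-E came next, with 212 ± 1.4 TPM in siNSUN2 and 140 ± 2.16 TPM in siControl cells. In siNSUN2 cells the order went on with HLA-C (118 ± 17.0 TPM), HLA-B (99.5 ± 1.53), TAPBP (84.9 ± 6.50), TAP1 (67.4 ± 1.10), TAP2 (17.4 ± 2.02), HLA-F (6.18 ± 0.334) and NLRC5 (2.48 ± 0.0945). In siControl cells TAPBP (120 ± 11.6 TPM) stood above HLA-C (61.3 ± 7.98) and HLA-B (58.5 ± 7.21), followed by TAP2 (39.4 ± 0.180), TAP1 (38.2 ± 0.453), HLA-F (3.95 ± 0.369) and NLRC5 (1.09 ± 0.150). HLA-C and HLA-B overlapped in the controls, and in the knockdown their means differed by about the SD of HLA-C. The TPM of TAP2 uses all its exonic bases, so it is too low if reads in the part shared with AL669918.1 were not counted, and its place beside TAP1 is uncertain. These are levels in bulk RNA relative to all other transcripts, so fewer cells that express a gene and less of its RNA per cell cannot be told apart.

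GC content went with the fold changes of all genes, and most of the 9 genes are GC-rich. Genes with an average log2 CPM above 3 were put in 5 equal classes of GC content. In the class with the highest GC content (57.0 to 73.9%, 1918 genes), which holds HLA-B, HLA-C, TAP1 and TAPBP, the median log2 fold change was 0.51, with 77.2% higher and 6.36% lower. TAPBP was thus called lower in a class where most genes rose. HLA-E was in the next class (median 0.14, 46.6% higher), TAP2 in the middle one (median −0.08, 40.4% lower) and B2M, at 40.6% GC, in a class with a median of −0.20 in which 17.4% were higher. HLA-F and NLRC5 were below the limit on expression, at 57.7% and 58.0% GC.

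**Figure D3:**
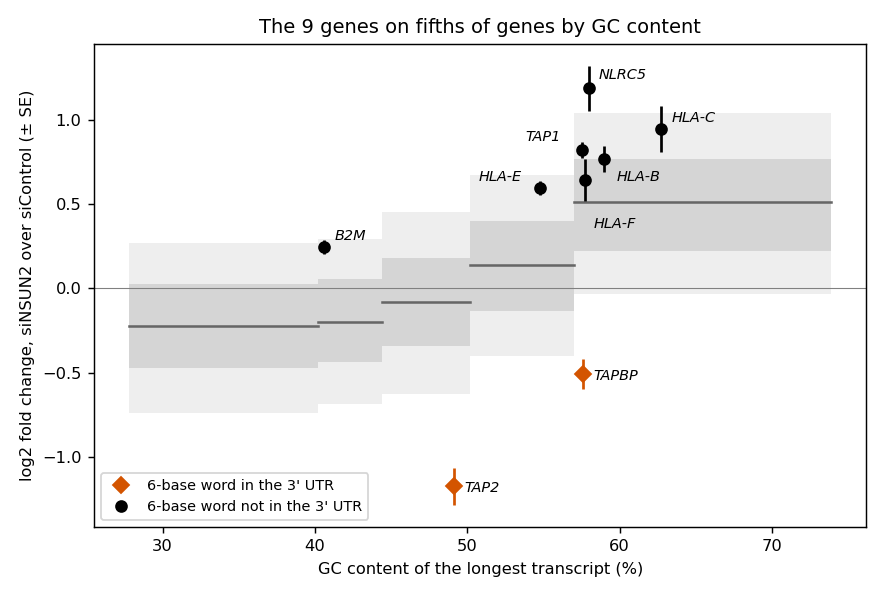
Log2 fold change, siNSUN2 over siControl (vertical axis, ± SE), against the GC content of the longest transcript (horizontal axis, percent) for the 9 genes, over 5 classes of all genes with average log2 CPM above 3 (line: median; dark band: first to last quartile; light band: first to last decile). The genes that rose lie above the median of their class, and TAP2 and TAPBP, the genes with the 6-base word (diamonds), lie below the light band.

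The fold changes were therefore also taken with the trends on GC content and transcript length removed from each library. In that fit, 8 of the 9 genes passed the test, with the same directions. The heavy chains, B2M and TAP1, which had spread from 0.24 to 0.94, then lay close together. HLA-B was at 0.45 (SE 0.091, adjusted p = 0.0183 with edgeR), HLA-E at 0.43 (SE 0.032), HLA-F at 0.38 (SE 0.12, adjusted p = 0.0406 with edgeR), B2M at 0.49 (SE 0.03) and TAP1 at 0.52 (SE 0.038). HLA-C was at 0.43 (SE 0.16) and was not called (adjusted p = 0.149 with edgeR). The summed heavy chains rose by 0.39 (SE 0.042, adjusted p = 2.30e-04 with edgeR), and NLRC5 by 0.81 (SE 0.14). TAP2 was at −1.19 (SE 0.095), whereas TAPBP went further down, to −0.82 (SE 0.094). The median of the 9 genes was 0.43, against 0.018 for all genes in that fit.

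**Figure D4:**
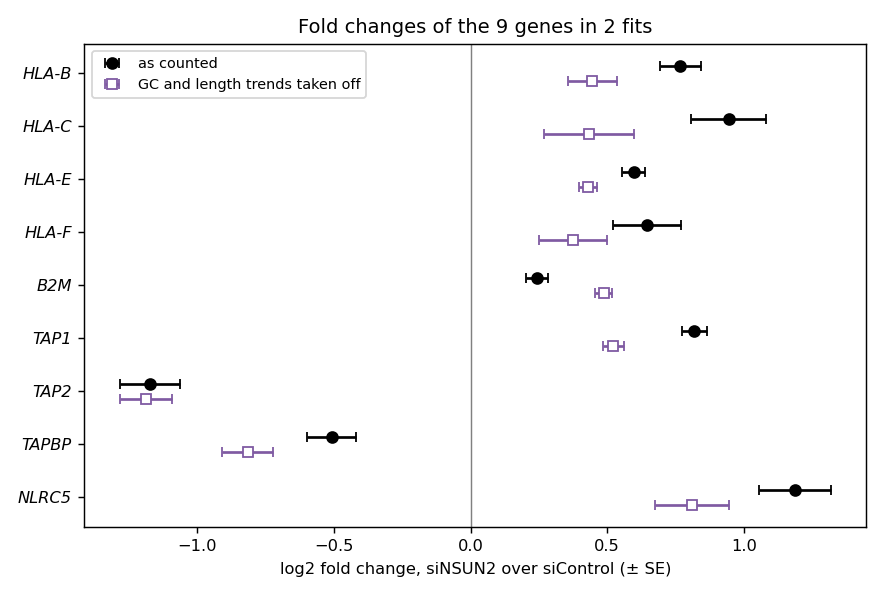
Log2 fold changes, siNSUN2 over siControl (horizontal axis, ± SE), of the 9 genes as counted (black) and after removal of the GC and length trends (open squares). TAP2 and TAPBP lie below 0 in both fits, and the heavy chains, B2M and TAP1 lie between 0.38 and 0.52 in the second.

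The other genes of the pathway came from 9 lists of 94 genes, of which 80 were tested, 38 rose and 25 fell. These counts, and those of each list, stand beside 27.1% higher and 25.5% lower among all genes tested, and nothing is read from a list near those shares. The ER folding and peptide editing genes all rose. Of 10 tested, 10 were higher (median log2 fold change 0.51, and 0.55 with the trends removed, where 9 were higher). Among them HSPA5, the ER chaperone BiP, had 2440 and 2390 CPM in siNSUN2 cells, against 1040 and 1070 CPM in siControl cells (log2 fold change 1.2). P4HB, a disulfide isomerase, rose by 1.05, and PRKCSH, a subunit of glucosidase II, by 0.58, or by 0.13 with the trends removed. The direct partners of the class I heavy chain in this list, the lectin chaperone genes CALR (0.60) and CANX (0.44) and PDIA3 (0.44), which encodes ERp57 of the loading complex, rose by less than BiP did. TAPBPL, which encodes a relative of tapasin that edits peptides away from the loading complex, had 9.22 and 9.23 CPM in siNSUN2 cells, against 3.74 and 3.49 CPM in siControl cells (log2 fold change 1.35). It was named after its values were seen, as were CALR, CANX and PDIA3.

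Of the 6 genes of the immunoproteasome and its activator, which supply peptides of the length class I binds, 5 rose and 1 fell (median 0.41, and 0.36 with the trends removed, with 5 higher and 0 lower). PSMB9, a catalytic subunit gene that neighbours TAP1, had 15.6 and 13.4 CPM in siNSUN2 cells, against 8.73 and 7.49 CPM in siControl cells (log2 fold change 0.85). The activator genes PSME1 and PSME2 rose by 0.48 and 0.34. Of 5 genes of the constitutive catalytic subunits and other activators, 1 rose, 2 fell and 2 missed the threshold (median 0.07, or −0.04 with the trends removed). PSME4 fell by 0.51 and PSME3 by 0.30. PSMB7 rose by 0.13, and was not called without the filter on low counts (0.15, adjusted p = 0.119 with edgeR). The call was also lost without siControl replicate 1 (0.08), without siControl replicate 2 (0.09) and without siNSUN2 replicate 1 (0.10). Of 10 peptidases that trim or destroy such peptides, 3 rose, 6 fell and 1 missed the threshold. Their median was −0.12, or −0.01 with the trends removed, where 3 were higher and 4 lower. IDE, the insulin-degrading enzyme, had 54.2 and 50.3 CPM in siNSUN2 cells, against 111 and 107 CPM in siControl cells (log2 fold change −1.06). TPP2 fell by 0.37, or by 0.17 with the trends removed, and LAP3 by 0.30.

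**Figure D5:**
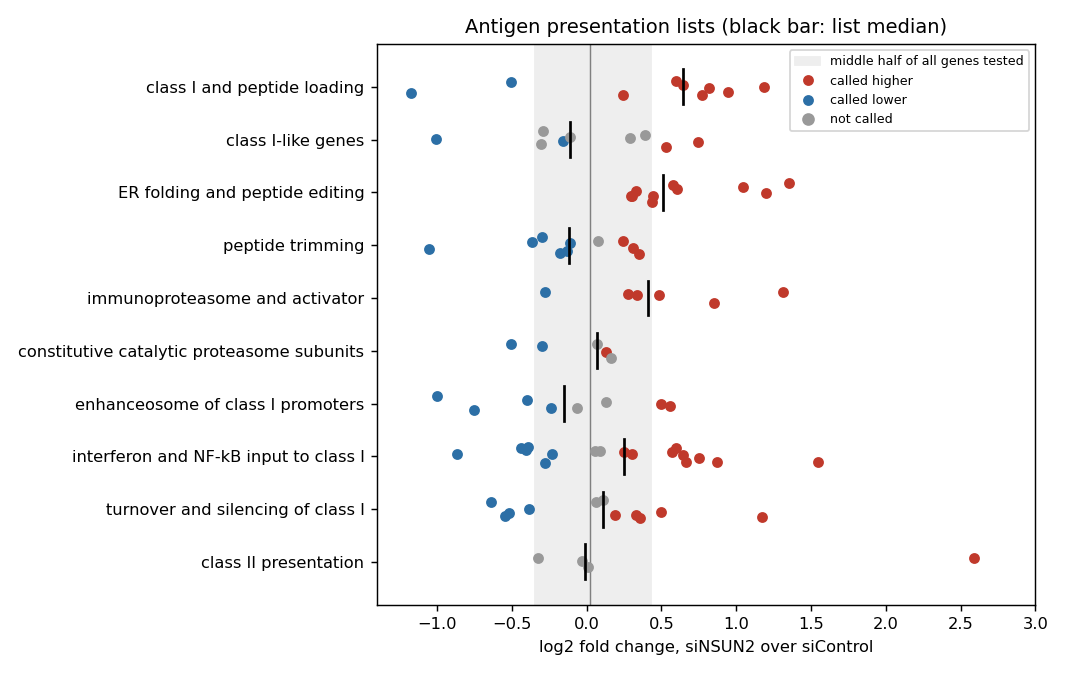
Log2 fold change, siNSUN2 over siControl (horizontal axis), of each tested gene in the class I list and in 9 lists of the antigen presentation pathway, with called higher in red, called lower in blue and not called in grey. A black bar marks each list's median, and the band and grey line mark the quartiles and the median (0.026) of all genes tested. The ER folding genes lie wholly above 0, and the other lists hold genes on both sides.

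The regulators of class I were mixed. Of 8 tested genes of the complex on class I promoters, 2 rose, 4 fell and 2 missed the threshold. Their median was −0.15, or 0.04 with the trends removed, where 3 were higher and 2 lower. RFX5, the DNA-binding subunit of the RFX complex, had 34.4 and 31.7 CPM in siNSUN2 cells, against 56.2 and 55.4 CPM in siControl cells (log2 fold change −0.75). ATF1, of the CREB/ATF family, fell by 1.0, and NFYC, a subunit of NF-Y, rose by 0.49. RFXANK, RFXAP and NFYB, named after their values were seen, had log2 fold changes of 0.56, −0.40 and −0.24, and RFXAP and NFYB were not called with the trends removed (−0.22 and 0.01). Of the 4 genes that fell, RFX5 and ATF1 hold 1 copy each of ACCCTA in the 3′ UTR, and RFXAP and NFYB hold 0. Elsewhere in the lists, HSPA5, RELA and PDIA3 rose with 1 copy each, and NFKB1 fell with 0.

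Of 17 genes of interferon and NF-kB signalling, 9 rose, 6 fell and 2 missed the threshold. Their median was 0.25, or 0.08 with the trends removed, where 8 were higher and 4 lower. NFKB1, the p105 and p50 subunit gene of NF-kB, had 71.4 and 69.5 CPM in siNSUN2 cells, against 129 and 127 CPM in siControl cells (log2 fold change −0.86), whereas its partner RELA rose by 0.65, or by 0.37 with the trends removed. SOCS3, a feedback inhibitor of cytokine signalling, rose by 0.87, or by 0.46 with the trends removed. Interferon factors were named after their values were seen: IRF1 had 65.4 and 59.9 CPM in siNSUN2 cells, against 36.9 and 37.5 CPM in siControl cells (0.75), and STAT2 rose by 0.66.

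Of 11 genes of class I turnover and silencing, 5 rose, 4 fell and 2 missed the threshold (median 0.11, or 0.13 with the trends removed, where 4 were higher and 5 lower). SYVN1, a ubiquitin ligase of ER-associated degradation, had 61.9 and 61.5 CPM in siNSUN2 cells, against 26.5 and 28.1 CPM in siControl cells (log2 fold change 1.18). TMEM127 and WWP2, which are known to act together in the removal of class I from the cell surface, fell by 0.64 and 0.55, and by 0.82 and 0.87 with the trends removed. SUSD6, known as another member of that module and named after its values were seen, rose by 0.36, and was not called with the trends removed (0.23, adjusted p = 0.0749 with edgeR).

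The class I-like genes were mixed. Of 15, 9 were tested, of which 2 rose, 2 fell and 5 missed the threshold (median −0.11, or 0.04 with the trends removed). AZGP1 was listed at 0 in all libraries. MICB, a stress-induced ligand of the NKG2D receptor, had 142 and 137 CPM in siNSUN2 cells, against 97.2 and 95.9 CPM in siControl cells (log2 fold change 0.53). ULBP1, another NKG2D ligand, had 4.45 and 4.0 CPM in siNSUN2 cells, against 8.68 and 8.34 CPM in siControl cells (−1.0). PROCR, the endothelial protein C receptor, fell by 0.16. FCGRT, the neonatal Fc receptor chain that pairs with B2M, had a log2 fold change of 0.74 and was not called with the trends removed (0.21, adjusted p = 0.436 with edgeR) or without any 1 of the 4 libraries (0.70 to 0.75, adjusted p up to 0.0918). HLA-G, the class I gene of the placenta, was near 0, with 17 and 1 counts in siNSUN2 cells, against 6 and 1 counts in siControl cells.

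Class II genes, which serve antigen presentation by specialised immune cells, were hardly measured. Of 11, 4 passed the filter, 1 rose and 3 did not pass the test. HLA-DRA and HLA-DQA1 had 10 and 9 counts in siNSUN2 replicate 2, and HLA-DRB1 and HLA-DQB1 had 3 each. These genes had 0 counts in every other library. HLA-DPA1, HLA-DMA and HLA-DOB had counts in all libraries and were not called. The part of such reads in the class I results was not tested. CD74, the invariant chain of class II, had 21 and 26 counts in siNSUN2 cells, against 6 and 10 counts in siControl cells. Its log2 fold change was 2.59 (adjusted p = 0.0329 with edgeR). Without siNSUN2 replicate 2, the library with the higher leukocyte and endothelial markers, it was 1.54 (adjusted p = 0.275 with edgeR), and without siControl replicate 2 it was 1.69 (adjusted p = 0.204). With the GC and length trends removed it was 2.28 (adjusted p = 0.0749).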

How the data were processed

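The authors deposited raw counts of all 4 libraries in 1 table, with Ensembl gene IDs as rows. HTSeq, HISAT2 and the build hg19 are named in the submitters' processing notes. Per the labels' protocols, mRNA was enriched from total RNA and made into libraries with a stranded kit. Not given in the sources used here were the tools' versions, the annotation and the strand setting. The 9 genes and all lists were chosen with earlier results of these data known.

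The main test was edgeR 4.0.16 (R 4.3.3; quasi-likelihood, robust, TMM factors, filterByExpr, 16889 of 62893 genes kept), two-sided with Benjamini-Hochberg adjustment. SEs were derived from its F statistic, and CPM use TMM-scaled library sizes. Alternatives used DESeq2 1.42.0 and limma 3.58.1 among others. For the GC and length fit, lowess trends (span 0.3) served as offsets. GC content was known for 96.4% of genes tested. Symbols, lengths, GC and 3′ UTRs came from GENCODE release 29 (GRCh38) through gene IDs. Both the test and the GC fit were checked on simulated counts. Besides the 9 genes and NSUN2, up to 3 called genes with the smallest p were named per list, and the 5 genes nearest in profile to the heavy chains. Libraries of a group did not agree within counting noise (a chi-square of 8.76 per degree of freedom in siNSUN2 and 13.8 in siControl).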

Additional observations from a re-analysis of the deposited data

How the results depend on the processing

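Across the 12 alternatives, the 9 genes kept their directions, and 8 or 9 of them were called in each. The summed heavy chains rose in all of them, by 0.39 with GC and length trends removed and by 0.66 to 0.73 in the others. Calls were lost for HLA-C and TAPBP alone among the 9 genes, in the fits named above and, for HLA-C, with the replicate number as a block (0.95, adjusted p = 0.208 with edgeR). The labels do not say that the number marks a shared batch, and same-numbered libraries deviated together with a correlation across genes of 0.0878. With the replicate block, 9815 genes were called in all, against 8880 without it. The number of all genes called ran from 7723 (without siNSUN2 replicate 1) to 9815, and that of the 94 pathway genes from 54 to 67. With GC and length trends removed, MFSD12, a gene named for its likeness to the heavy chains, went to −0.0398. Leaving out each library in turn, the log2 ratio of the HLA-B share of heavy chain counts ranged from −0.022 to 0.13. Low counts limit the precision of genes such as HLA-F, NLRC5, FCGRT and CD74, and 2 libraries a group limit every p-value.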

Other observations

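Genes whose profile over the 4 libraries was most like that of the heavy chains were sought among coding genes with an average log2 CPM of at least 2. Each profile was centred on its own mean, and likeness was the Euclidean distance in log2 CPM from the mean profile of HLA-B, HLA-C, HLA-E and HLA-F. The nearest were MFSD12 (distance 0.0369), HID1 (0.0401), LRRC14 (0.0455), SLC35C1 (0.05) and CORO1B (0.0504). HLA-B itself lay at 0.0872, HLA-F at 0.0965, HLA-E at 0.211 and HLA-C at 0.251. These 5 genes have log2 fold changes of 0.70 to 0.76 and a GC content of 61.3 to 67.8%. With the trends on GC content and length removed they were at −0.04 (MFSD12), 0.23 (HID1), 0.07 (LRRC14), 0.23 (SLC35C1) and 0.12 (CORO1B), of which SLC35C1 was called (adjusted p = 0.0199 with edgeR), whereas HLA-B, HLA-C, HLA-E and HLA-F were at 0.45, 0.43, 0.43 and 0.38.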
